A study of Mus musculus with 24 samples.

Results

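At day 1 of induced cardiac reprogramming, 7257 intervals of the mouse genome lay in called H3K9me3 peaks where the lists of the starting fibroblasts had none. Absence from a list does not show absence of the mark, because sequence under the peak threshold is not listed. They were selected base by base on chromosomes 1 to 19 and X: sequence inside a peak of both day 1 H3K9me3 lists and of neither ground-state list, in runs of at least 500 bp. The members held 7.1 Mb, or 0.276% of the 2571 Mb spanned, and came from 4 lists with 203612 peaks. The reverse rule (both ground-state lists, neither day 1 list) gave 704 intervals and 0.853 Mb, called ground-only below. A further 21860 intervals and 41.6 Mb lay in all 4 lists and are called shared. All 3 sets were chosen on the H3K9me3 lists themselves, so their H3K9me3 values are descriptions and carry no test.

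H3K9me3, trimethylation of lysine 9 of histone H3, is the mark of constitutive heterochromatin. SETDB1 and SUV39H enzymes deposit it, HP1 proteins read it, and KRAB zinc finger proteins with TRIM28 direct it to transposons and to clusters of zinc finger genes. It also covers gene-poor chromatin and clustered families such as the olfactory receptors, and H3K9me3 domains of fibroblasts are known as obstacles to reprogramming.

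CUT&RUN, in which an antibody-tethered nuclease releases DNA beside the bound protein, was applied to iMGT-Myh6-eGFP-MEF, mouse embryonic fibroblasts in which doxycycline switches on the cardiac factors Gata4, Mef2c and Tbx5 and eGFP reports the cardiac myosin gene Myh6. Day 1 cells had been plated at 300000 per well in reprogramming medium, transfected with an siRNA and given 1 µg/mL doxycycline the next day; all groups carried the same transgenes. H3K9me3 and the linker histone H1.0 were profiled in ground-state cells (n = 2 each) and at day 1 under siControl (n = 2 each), and MEF2C only at day 1, in 2 siControl, 3 siJunb and 3 siH1f0 samples. For the ground state 1 label field gives no treatment while the library name reads d0_siControl, and a ground-to-day 1 difference also holds plating, medium, transfection and doxycycline, which cannot be told apart here.

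The 4 H3K9me3 lists differed in length within each state. The ground-state lists covered 65.7 Mb (replicate 1) and 314.7 Mb (replicate 2), and the day 1 lists 109.1 and 363.1 Mb. Replicate 1 of each state had short peaks (median 2049 bp in the ground state and 1153 bp at day 1), and replicate 2 wider peaks (2967 and 4790 bp). Values from lists cut to 65.7 Mb of their highest peaks, which evens the length and also drops weaker peaks, stand beside the results they alter.

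Few annotated starts lay in members, and their sequences are shown as the part of the members that could be read. Of 32619 RefSeq promoter windows (GRCm38.p6, 250 bases before to 50 after a start), 28 lay wholly in a member, or 0.0858%, and 5 in a ground-only interval, or 0.0153%. Of the 28, 15 belonged to protein-coding genes, and 8 of those were olfactory receptor genes. The 250 bases before the start are printed 5′ to 3′ on the gene's strand, with CpG dinucleotides in capitals. Olfr975 (chr9:39950770-39951019, minus strand) and Olfr821 (chr10:130033378-130033627, plus strand) encode odorant receptors, Vmn2r93 (chr17:18298031-18298280, plus strand) a pheromone receptor and Ctsm (chr13:61541840-61542089, minus strand) a placental cathepsin. They stand for the CpG-poor starts that made up most of the 28, and Celsr2 (chr3:108415580-108415829, minus strand), an atypical cadherin gene, for the CpG-rich exceptions. Grb10 (chr11:12027972-12028221, minus strand), an imprinted gene of an adaptor protein, is shown from the reverse set.
Olfr975: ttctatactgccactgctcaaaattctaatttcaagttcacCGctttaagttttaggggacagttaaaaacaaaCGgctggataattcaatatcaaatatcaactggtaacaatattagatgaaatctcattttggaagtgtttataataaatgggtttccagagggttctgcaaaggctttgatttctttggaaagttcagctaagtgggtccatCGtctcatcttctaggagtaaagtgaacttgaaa
Olfr821: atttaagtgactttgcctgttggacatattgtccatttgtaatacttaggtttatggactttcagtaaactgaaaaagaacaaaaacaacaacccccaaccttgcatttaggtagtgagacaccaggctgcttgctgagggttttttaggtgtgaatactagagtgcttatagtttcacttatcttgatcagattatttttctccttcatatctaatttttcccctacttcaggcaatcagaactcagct
Vmn2r93: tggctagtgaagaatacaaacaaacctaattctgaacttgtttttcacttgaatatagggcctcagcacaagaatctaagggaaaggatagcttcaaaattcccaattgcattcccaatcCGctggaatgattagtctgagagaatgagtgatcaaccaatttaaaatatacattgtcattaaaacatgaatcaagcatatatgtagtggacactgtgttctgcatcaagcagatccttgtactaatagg
Ctsm: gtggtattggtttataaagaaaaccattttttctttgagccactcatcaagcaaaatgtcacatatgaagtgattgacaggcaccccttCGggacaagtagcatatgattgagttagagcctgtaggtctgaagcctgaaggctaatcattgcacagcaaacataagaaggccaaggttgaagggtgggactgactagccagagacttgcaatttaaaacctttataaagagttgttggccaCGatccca
Celsr2: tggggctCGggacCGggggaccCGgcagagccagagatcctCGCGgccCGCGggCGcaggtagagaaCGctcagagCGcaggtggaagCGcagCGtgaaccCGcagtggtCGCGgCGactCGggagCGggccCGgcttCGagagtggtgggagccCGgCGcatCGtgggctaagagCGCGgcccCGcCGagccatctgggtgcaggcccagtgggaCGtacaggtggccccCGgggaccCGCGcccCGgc
Grb10: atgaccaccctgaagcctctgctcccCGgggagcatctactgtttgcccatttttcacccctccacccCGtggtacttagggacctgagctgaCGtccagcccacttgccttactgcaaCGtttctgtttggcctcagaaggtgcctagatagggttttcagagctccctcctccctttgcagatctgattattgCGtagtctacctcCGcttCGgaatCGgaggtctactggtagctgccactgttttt

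Olfr975 had 3 CpG in its 250 bases, Olfr821 had 0, Vmn2r93 had 1 and Ctsm had 2, against 32 in Celsr2 and 8 in Grb10. Over the 300-base windows, the 28 in members had a median of 2 CpG and a GC content of 39.0%, against 7 CpG and 53.0% over all windows. At least 10 CpG stood in 5 of the 28 (17.9%) and in 43.8% of all windows. Windows in shared intervals were close in CpG, with a median of 3 and 19.9% with at least 10, and had a GC content of 47.0%. The Celsr2 start shared its 792 bp member with the start of the lncRNA Gm52630, and this member touched a ground-state peak. The Olfr975 member of 2051 bp held the whole 0.933 kb gene, had a maximum signal of 7 and 19 in the 2 day 1 libraries, and lay 911 bp from the nearest ground-state peak. The AP-1 motif TGANTCA, searched on both strands of each window, occurred in 2 of the 28 (7.14%) and in 7.85% of all windows. The MEF2 motif occurred in 2 (7.14%) and in 3.11% of all windows. Matches of the 2 motifs were counted separately and may overlap.

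Members were short and mostly drawn from weak peaks of day 1 replicate 1. Their median length was 922 bp (range 500 to 4258 bp), 2941 (40.5%) reached 1 kb, and 105 reached 2 kb. At the length threshold, 10 intervals measured exactly 500 bp and 3 measured 499 bp and were left out. Counted at any length the pattern gave 12076 intervals and 8.08 Mb. In replicate 1 a member's peak had a median width of 1094 bp and a median maximum signal of 5, at percentile 27.0 of that list, and 4280 members (59.0%) were the whole peak. In replicate 2 the peak had a median width of 11083 bp and a maximum of 18, at percentile 48.6, and no member was the whole peak. The members thus filled a median of 8.42% of a broad replicate 2 peak. Shared intervals filled a median of 11.0% of theirs, so this was not particular to members. By signal, shared intervals ranked higher, at percentiles 78.9 and 83.7 of the same 2 lists. These signals are the authors' and rank peaks within 1 list.

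The excess of members over the reverse pattern did not hold in all settings. By the rule there were 10.3 members per ground-only interval. With all 4 lists cut to equal covered length there were 1508 against 1990, a ratio of 0.758. Without ground-state replicate 1 the counts were 7688 and 31516 (0.244), without day 1 replicate 2 they were 13808 and 14244 (0.969), without day 1 replicate 1 they were 45333 and 925 (49.0), and without ground-state replicate 2 they were 43197 and 1037 (41.7). Within replicate 1 the day 1 list held 65.5 Mb that the ground-state list lacked, against 22.1 Mb the other way, and within replicate 2 the lengths were 116.2 and 67.8 Mb. Members made up 10.8% and 6.11% of those day 1 lengths.

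Most members lay within 1 kb of a ground-state H3K9me3 peak, mainly of replicate 2, and few were over 20 kb from the nearest peak of both lists. A ground-state peak touched 2460 members (33.9%), lay within 1 kb of 4517 (62.2%) and within 5 kb of 6173 (85.1%), and the median gap was 411 bp. Ground-state peaks stood within 1 kb on either side of 1409 members (19.4%). Only 360 members (4.96%) were over 20 kb from such a peak, and 37 over 100 kb. The neighbour came mainly from replicate 2: its peaks lay within 1 kb of 61.3% of members, and those of replicate 1 within 1 kb of 8.98%, with a median gap of 19853 bp. Ground-only intervals touched day 1 peaks more often (47.2%) but were also more often over 20 kb away (16.5%). In the 5 kb on each side of a member, ground-state peaks covered a mean of 5.38% (replicate 1) and 42.5% (replicate 2) and day 1 peaks 14.6% and 70.4%.

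**Figure D1:**
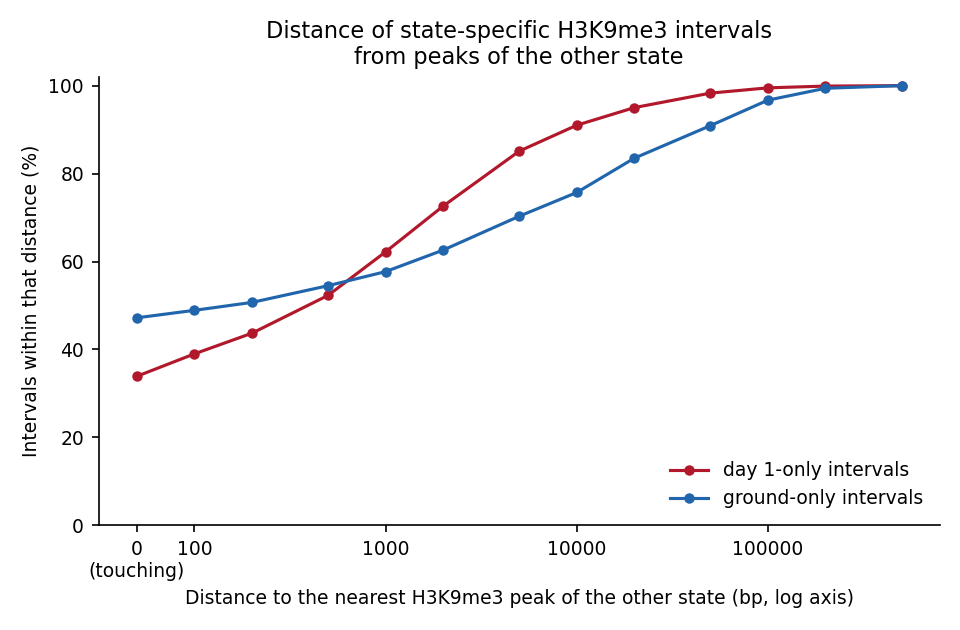
Cumulative percentage of day 1-only (red) and ground-only (blue) intervals against distance to the nearest H3K9me3 peak of the other state, on a log axis with touching intervals at the left. The red curve starts lower (33.9% against 47.2%) and reaches 85.1% within 5 kb, where the blue curve stands at 70.3%.

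The named members lay both near to and far from ground-state peaks. The interval of 3534 bp at chr2:40617477-40621010, inside the lipoprotein receptor gene Lrp1b, touched a ground-state peak and had maxima of 12 and 45 (percentiles 95.1 and 91.8). That of 3203 bp at chr2:141966309-141969511 in Macrod2, an ADP-ribosylhydrolase gene, was a whole replicate 1 peak, at percentile 49.0, inside a 15.3 kb replicate 2 peak. The 10 members with the highest rank in both day 1 lists all touched a ground-state peak; the first, of 1362 bp at chr12:18653875-18655236 near LOC115488002, had maxima of 31 and 127, and the second lay in the zinc finger gene Zfp996. They ranged from 563 to 1753 bp in peaks that reached 10.6 kb and 239.6 kb, so the ranked maximum belongs to a peak of which the member is a part. Among members over 20 kb from any ground-state peak, the highest ranked was at chr2:142779803-142781630 in Kif16b, a kinesin gene (maxima 10 and 43, 124.3 kb away). It was followed by chr13:53165886-53168677 in Ror2, a WNT5A receptor (15 and 38, 26.5 kb), and by an interval near Cdh3, which encodes P-cadherin (11 and 36, 26.4 kb). A member of 981 bp in Tbp, the TATA-binding protein gene used as a housekeeping control, also ranked in this group (9 and 25, 21.7 kb away).

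Members lay in gene bodies less often than the extent of those bodies. Of the 7257, 1722 (23.7%) overlapped a protein-coding gene body, while such bodies made up 40.0% of the sequence spanned, and the same share was 29.1% for ground-only and 29.5% for shared intervals, so all 3 sets lay below that extent. Of the members, 3576 (49.3%) lay over 100 kb from any protein-coding gene. The median distance to a gene was 93.2 kb, against 24.0 kb for ground-only and 24.0 kb for shared intervals. This distance differed between the settings: at equal covered length it was 22.8 kb for day 1-only and 23.7 kb for ground-only intervals. With only the peaks ranked above the median signal of each list, called the stronger peaks below, it was 51.8 and 18.9 kb. The share within 5 kb of a gene was lower for members in all 3 settings (28.5% against 34.5%, 32.8% against 39.2%, and 29.6% against 38.7%). Members over 20 kb from a ground-state peak lay nearest to genes, with 40.3% within 5 kb of one. The share was 27.8% for members touching a ground-state peak, 27.6% at 1 to 5000 bp and 30.0% at 5 to 20 kb. For ground-only intervals it was 29.8% when touching a day 1 peak and 54.3% over 20 kb away.

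Along the chromosomes, the density was 2.82 members per Mb. It was highest on chromosomes 17 (4.44), 10 (4.16), 1 (4.08) and 8 (4.05), and lowest on chromosomes 3 (1.4) and 11 (1.45), with 1.66 on X. Of 1326 windows of 2 Mb, 345 held none and the median was 2, yet 1 window held 58. That window, chr6:132000001-134000000, carries salivary proline-rich protein and bitter taste receptor genes. The next, with 54, was the olfactory receptor cluster at chr2:86000001-88000000, and the next, with 53, held the ephrin receptor gene Epha5 at chr5:84000001-86000000. In the taste receptor window, peaks covered 6.3% and 43.1% in the ground state and 16.1% and 62.4% at day 1, so the ground-state replicate 2 list already covered much of it. Windows with 0 protein-coding genes held a mean of 10.6 members, those with 1 to 5 genes 8.62, those with 6 to 20 genes 4.59 and those with 21 or more 3.8. The medians were 3, 4, 2 and 1, and 13 of the 38 windows without genes held no member, so a few windows carry the first mean. Ground-only intervals ranged from 0.395 to 0.588 per window over the same classes.

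Among gene lists of over 100 genes, type 2 vomeronasal and olfactory receptors were most often near members. A gene counts as near when a member lies within 5 kb of its annotated ends, which held for 972 of 21627 protein-coding genes (4.49%). A ground-only interval was near 239 (1.11%), and a shared one near 3222 (14.9%). Olfactory receptor genes, each expressed in few olfactory neurons, had a member near 151 of 1110 (13.6%), a ground-only interval near 3 and a shared one near 134. Of the type 2 vomeronasal receptors, which detect pheromones, 30 of 124 (24.2%) had a member near, 0 a ground-only interval and 26 a shared one, near the count for members. Type 1 vomeronasal receptors stood at 10 of 231 (4.33%), close to all genes. Olfr975, Olfr128 and Olfr150 lay wholly inside members, and Vmn2r79 held 3 members and 2.85 kb of its 41.5 kb body. At equal covered length, 3.78% of olfactory and 2.42% of type 2 vomeronasal genes were near a day 1-only interval, against 0.27% and 0.806% for ground-only, and with the stronger peaks of each list 5.41% and 8.06%, against 0.0% and 0.0%. For the type 2 vomeronasal genes the equal-length shares are 3 genes against 1. Over all genes that setting put a day 1-only interval near 304 and a ground-only interval near 332.

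Other clustered families followed with smaller counts. Members were near 5 of 19 UDP glucuronosyltransferase genes, which conjugate drugs and hormones, 8 of 57 Speer and Pramel genes and 8 of 71 defensins (antimicrobial peptides). They were also near 4 of 38 taste receptors, 8 of 99 cytochrome P450 genes and 8 of 109 keratin genes. Each share was above the 4.49% of all genes. Shared intervals were near 73.7% of the UDP glucuronosyltransferase, 28.1% of the Speer and Pramel and 25.3% of the cytochrome P450 genes, against 14.9% of all genes. Nearness of these lists to an interval was thus not particular to members. For defensins, taste receptors and keratins the shares near shared intervals were 15.5%, 10.5% and 10.1%, close to or below that of all genes. The 18 of 57 clustered protocadherins, neuronal adhesion proteins, lie largely in the gamma cluster, where genes share 3′ exons, so 2 members there count for many genes. A ground-only interval was near 8 of the 57 protocadherins, against 1.11% of all genes, and a shared one near 29, against 14.9%. Nearness of this family to an interval was thus not particular to members. Of the Zfp series of zinc finger genes, a classical H3K9me3 target, 13 of 397 (3.27%) had a member near, close to the share of all genes, and 161 (40.6%) had a shared interval near, against 14.9% of all genes. Zfp993 carried 10 members and 13.3 kb, and Zfp804a 3 members in its body. Of 24 imprinted genes 1 had a member near (Snrpn), of 58 core histone genes 2, and of 39 Hox genes, which pattern the body axis, 0.

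**Figure D2:**
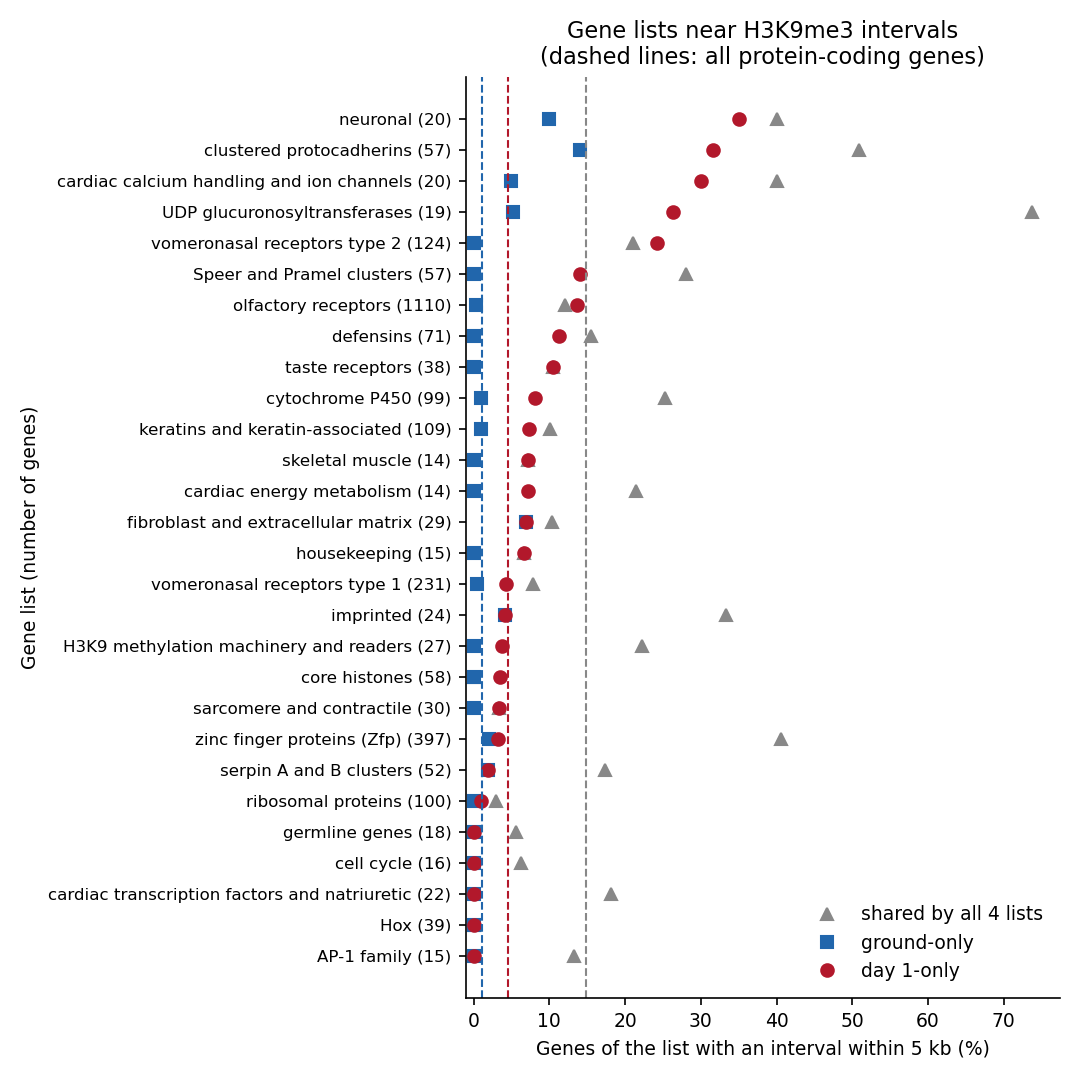
Percentage of genes with an interval within 5 kb, for each gene list of at least 14 genes (number in brackets), for day 1-only (red circles), ground-only (blue squares) and shared intervals (grey triangles); dashed lines give the percentage over all protein-coding genes. Neuronal genes, protocadherins, cardiac ion channels and type 2 vomeronasal receptors lie to the right of the red line at 4.49%, and Zfp genes lie left of it, at 40.6% for shared intervals.

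In gene bodies, members concentrated in very long genes. A member lay in the body of 661 protein-coding genes (3.06% of all), and a ground-only interval in 193 (0.892%). By length, the share was 0.698% of genes under 10 kb, 1.94% of those from 10 to 100 kb, 11.8% of those from 100 to 500 kb, and 55.3% (125 of 226) of those of 500 kb or longer. Long genes offer more sequence, so the covered share is the fairer measure: members covered 0.128%, 0.0626%, 0.116% and 0.473% of body sequence in these classes, against 0.276% of the genome. At equal covered length the long genes held 0.0873%, against 0.0773% of the genome, and with the stronger peaks of each list 0.132% against 0.109%. Ground-only intervals at equal covered length held 0.196% of the long genes, against 0.108% of the genome, a larger excess than that of day 1-only intervals, and with the stronger peaks 0.0079% against 0.0167%. By the rule, ground-only intervals held 0.0261% of the long genes, against 0.0332% of the genome, and shared intervals 1.49% against 1.62%. Coverage of long genes above the genome share was thus found for day 1-only intervals in each setting. For ground-only intervals it was found only at equal covered length.

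**Figure D3:**
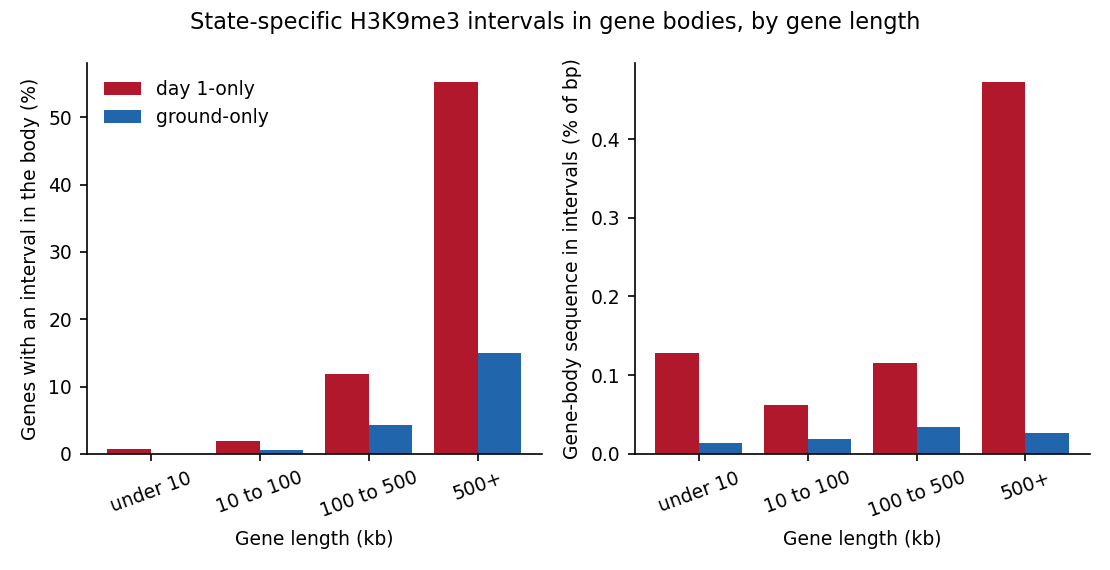
Left, percentage of protein-coding genes with an interval in the body, by gene length; right, percentage of body sequence in intervals; red bars are day 1-only and blue bars ground-only intervals. The class of 500 kb or longer stands highest for day 1-only intervals in both panels, at 55.3% of genes and 0.473% of sequence.

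The 15 genes with most sequence in members were all 535.8 kb or longer, and 2 of them, Nrxn3 and Csmd1, are on the neuronal list. Nrxn3, a presynaptic adhesion protein gene, held 29 members and 27.7 kb over its 1612 kb (chr12:88722701-90334935). Peaks covered 3.6% and 48.2% of Nrxn3 in the 2 ground-state libraries and 11.3% and 65.0% at day 1. The glycosyltransferase gene Mgat4c held 25 members and 27.3 kb, covered at 3.55% and 42.1% in the ground state and 14.3% and 69.4% at day 1. Csmd1, a complement regulator expressed in brain, held 26 members and 26.7 kb, covered at 1.38% and 42.1% and then 9.12% and 61.6%. In each of these 3 genes both day 1 values exceeded the ground-state value of the same replicate number, and replicate 2 of the ground state exceeded replicate 1 of day 1. Thsd7b followed with 26.1 kb, the glypican gene Gpc5 with 24.8 kb, the netrin receptor gene Dcc with 23.8 kb and the potassium channel gene Kcnq5 with 22.7 kb. The remaining 8 of the leading 15, Galntl6, Macrod2, Etl4, Dpp10, Lsamp, Tenm2, Iqcm and Cntnap5c, held 18.8 to 21.9 kb. Of the 20 neuronal marker genes, members lay near 7, among them Nrxn3, Csmd1 and Lrp1b, ground-only intervals near 2 and shared intervals near 8. At equal covered length, day 1-only intervals lay near 2 of the 20 and ground-only intervals near 1.

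Among genes with a body of at least 2 kb, short genes led by share of the body. Members measured at most 4258 bp, so very long genes could not rank high by this measure. A member covered 51.2% of Ddn, which encodes dendrin, 46.8% of the forkhead gene Foxd2, 28.9% of Pramel50 and 28.0% of Ifng, the interferon gamma gene. In Ctsm, 2 members together covered 29.4%. Ddn, Foxd2 and Ifng had 0.0% of their body covered in either ground-state library. The day 1 values were 51.2% and 66.0% for Ddn, 46.8% and 63.8% for Foxd2, and 28.0% and the whole body for Ifng. These 3 genes therefore differed between the states in both libraries, as the rule requires within the member. Ifng also had a ground-only interval within 5 kb of its ends. The same ranking gave Mup12, Apbb3, Tpbpb, Speer4b and Defb6 at 20.7 to 27.9%. Mup12, Apbb3 and Tpbpb likewise had 0.0% covered in both ground-state libraries.

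Cardiac and fibroblast gene lists were read against the 4.49% of all protein-coding genes that had a member near, and counts of 0 or 1 in lists of this size stand near that share. Of 22 cardiac transcription factor and natriuretic peptide genes 0 had a member near and 4 a shared interval, and of 30 sarcomere genes 1 had a member near (Nebl, nebulette). Cardiac calcium handling and ion channel genes stood higher, with 6 of 20 (30.0%), and these 6 genes are 250.8 to 553.8 kb long. A shared interval was near 8 of the 20 (40.0%), against 14.9% of all genes, so this was not particular to members. Slc8a1, the sodium-calcium exchanger, held 6 members and 5.28 kb of 365.3 kb. Peaks covered 15.4% and 91.9% of Slc8a1 in the ground state and 36.0% and 99.0% at day 1. Ryr2, the calcium release channel, held 4 members and 4.07 kb, and was covered at 0.588% and 19.1%, then at 5.56% and 28.1%. Kcnd2, Trdn, Cacnb2 and Camk2d held 1.1 to 1.72 kb each, and ground-only intervals were near 1 of the 20, Camk2d. At equal covered length 2 of the 20 had a day 1-only interval near and 0 a ground-only one. Of 29 fibroblast and matrix genes 2 had a member near (Fbn1 and Ddr2) and 2 a ground-only interval (Ddr2 and Fbln1). No AP-1 gene of 15 and no linker histone gene of 9 had a member near, and of 27 genes of the H3K9 methylation machinery 1 had (the demethylase gene Kdm4d). Markers of other cells gave 1 of 14 skeletal muscle genes (Myh8), 1 of 9 endothelial (Flt1), 1 of 15 housekeeping (Tbp), 1 of 14 cardiac energy genes (Esrrg), 1 of 52 serpin genes, and 0 of the smooth muscle, hepatocyte, blood, germline, pluripotency and cell cycle lists. The 1 of 100 in the ribosomal protein list was Rps6ka2, a kinase matched by its prefix.

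MEF2C, 1 of the 3 induced factors and a DNA-binding activator of muscle genes, did not enter the rule, and its day 1 peaks were scarce in members. MEF2C peaks covered 0.44% and 1.12% of member sequence under siControl, 0.445%, 1.08% and 0.878% under siJunb, and 0.808%, 1.33% and 0.518% under siH1f0. In ground-only intervals the same libraries covered 1.8% and 6.34%, then 0.989%, 6.81% and 4.05%, then 4.49%, 7.4% and 2.46%. Members lay below the genome-wide share of the same list in 8 of 8 libraries, at 0.359 to 0.851 of it, and ground-only intervals above it in 8 of 8, at 1.76 to 2.98 times. Shared intervals ran from 0.306 to 1.3 times that share and lay above it only in siJunb replicates 2 and 3. The mean was 0.827% ± 0.337 (SD, n = 8) for members and 4.29% ± 2.41 (SD, n = 8) for ground-only intervals. The difference of -3.47 percentage points was in the same direction in 8 of 8 libraries (exact sign-flip permutation test, two-sided, p = 0.00781, the smallest possible). Adjusted with Benjamini-Hochberg, the exact permutation p was 0.0469 over the 6 tests of the design and 0.0625 over all 8 run, which misses the 0.05 threshold. With intervals from lists of equal covered length the difference was -0.436 points and no longer passed (exact permutation p = 0.0547). Against shared intervals, at 1.45% ± 1.17 (SD, n = 8), members differed by -0.624 points and were lower in 5 of 8 libraries (exact permutation p = 0.141). The labels call the samples biological replicates without naming what was repeated, so the p-values cover only the variation among these libraries, which may be technical.

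**Figure D4:**
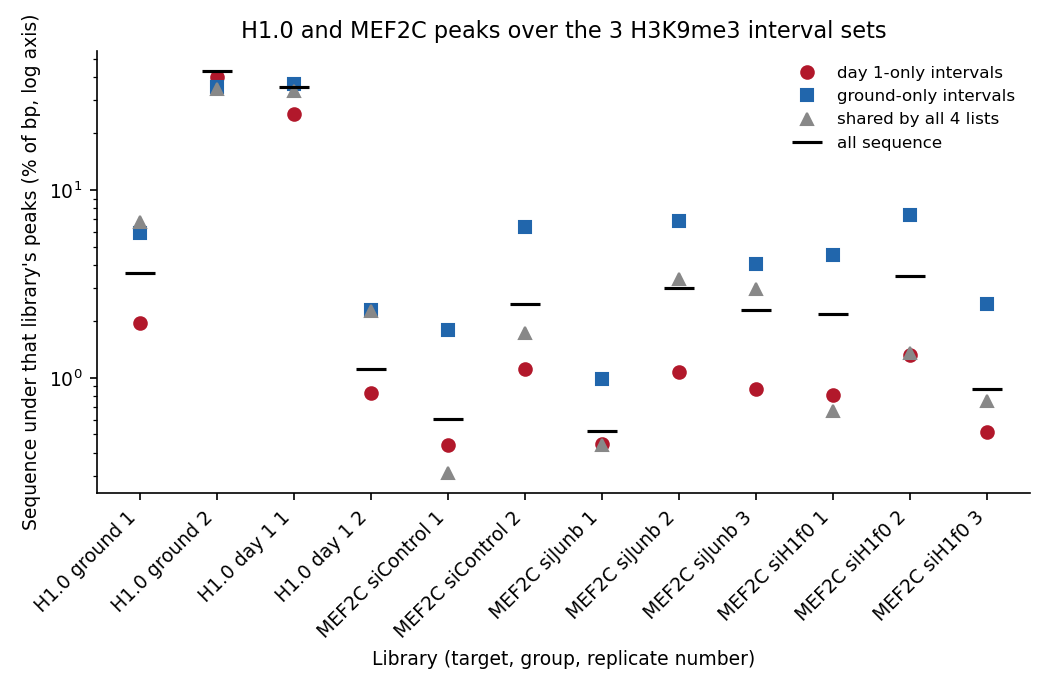
Percentage of sequence under the peaks of each H1.0 and MEF2C library (log axis), for day 1-only (red circles), ground-only (blue squares) and shared intervals (grey triangles), with the percentage over all sequence as a black dash. In the 8 MEF2C libraries the red circles lie below and the blue squares above the dash, while the dashes of the 4 H1.0 libraries range from 1.11% to 43.1%.

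The distance from ground-state H3K9me3 separated members by MEF2C. MEF2C peaks covered a mean of 0.216% ± 0.171 (SD, n = 8) of members touching a ground-state peak, 0.572% ± 0.213 of those 1 to 5000 bp away, 1.28% ± 0.619 at 5 to 20 kb and 5.84% ± 2.38 beyond 20 kb. At least 1 MEF2C library held 40 of the 2460 touching members (1.63%) and 68 of the 360 beyond 20 kb (18.9%). In the 8 libraries the lowest value beyond 20 kb was 3.6% and the highest among touching members 0.451%, so these classes did not overlap. The same lists covered 0.522% to 3.49% of all sequence. Members beyond 20 kb thus lay above the genome-wide share and touching members below it. Ground-only intervals stood at 2.7% ± 1.91 when touching, 6.34% ± 3.41 at 5 to 20 kb and 5.08% ± 3.18 beyond 20 kb. In that last class members and ground-only intervals overlapped in range. These classes were set after the values were seen and were not tested. Members beyond 20 kb also lay nearer to genes than the other classes, as given above.

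**Figure D5:**
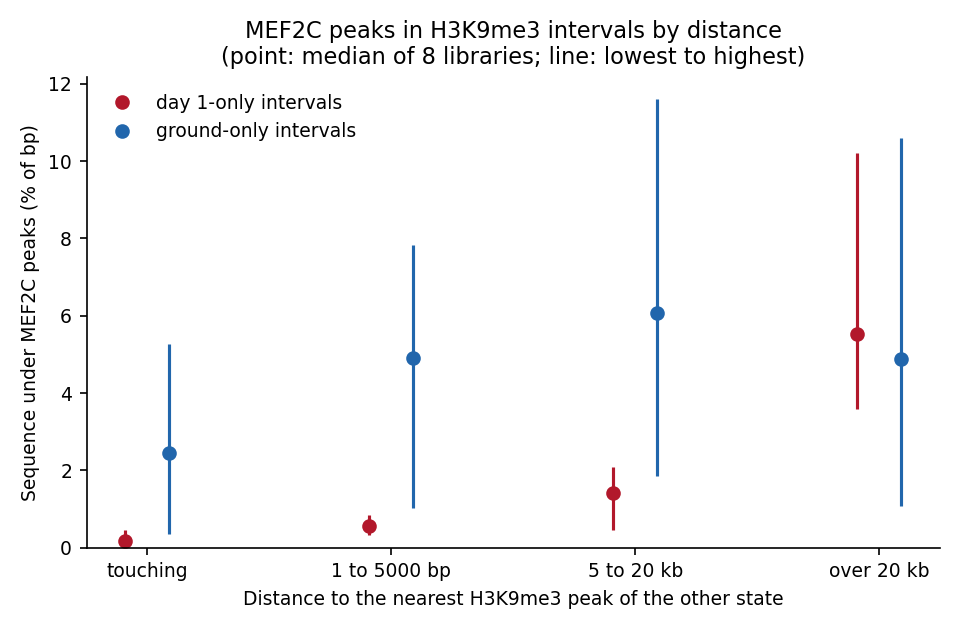
Percentage of sequence under MEF2C peaks by distance to the nearest H3K9me3 peak of the other state, for day 1-only (red) and ground-only intervals (blue); points are medians and lines run from the lowest to the highest of 8 libraries. Day 1-only medians go from 0.188% for touching intervals to 5.52% beyond 20 kb, where the ground-only median is 4.88%.

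At least 1 MEF2C library held 209 members (2.88%), 101 of them in 1 library only, and all 8 held 19. Members held by all 8 libraries included intervals inside Rnf24, Adgrv1 (an adhesion receptor of hair cells and retina), Rfx4 (a transcription factor) and Hip1 (a clathrin adaptor), and near Litaf, Slain2, Xaf1, Mreg, Aqr and Hdac9, a histone deacetylase that binds MEF2. The Adgrv1 interval, chr13:81162790-81164268, was a whole replicate 1 H3K9me3 peak with maxima of 9 and 21, and lay 34.4 kb from the nearest ground-state peak. The Litaf interval, chr16:10996332-10998374, measured 2043 bp, had maxima of 7 and 40, and lay 3.9 kb away. None of these 10 touched a ground-state peak.

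The knockdowns were compared by the share of members held by a MEF2C peak. It was 0.661% and 1.2% under siControl, 0.62%, 1.6% and 1.12% under siJunb, and 0.965%, 1.49% and 0.689% under siH1f0, and the 3 ranges overlapped. The siJunb mean exceeded siControl by 0.181 points (exact permutation p = 1.0) and siH1f0 exceeded it by 0.117 points (exact permutation p = 0.8). The siJunb and siH1f0 means differed by 0.0643 points (exact permutation p = 0.8). With 3 against 2 libraries the smallest possible p is 0.2, and with 3 against 3 it is 0.1, so no such test could pass 0.05. All 3 differences were below the spread within a group. Without siControl replicate 1 they were -0.0873 points for siJunb and -0.152 for siH1f0, without siJunb replicate 2 they were -0.062 against siControl and -0.179 against siH1f0, and without siH1f0 replicate 2 the siH1f0 difference was -0.103. Without siH1f0 replicate 3, siJunb minus siH1f0 was -0.115 points. All libraries of a group held 44 members under siControl (2 libraries), 26 under siJunb (3) and 36 under siH1f0 (3).

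H1.0, a linker histone of compact chromatin that accumulates in resting and differentiated cells, covered members to very different extents in its 4 lists. H1.0 peaks covered 1.95% and 39.8% of member sequence in the ground state and 25.4% and 0.834% at day 1. The lists themselves covered 3.61% and 43.1%, then 35.4% and 1.11%, of the genome. Members lay below the genome-wide share in 4 of 4 lists, at 0.54, 0.922, 0.716 and 0.752 of it. The day 1 mean of 13.1% ± 17.4 (SD, n = 2) was -7.75 points from the ground-state mean of 20.9% ± 26.7 (SD, n = 2), less than the spread within either group (exact permutation p = 0.667, in a design that cannot reach 0.05). Paired by replicate number the pairs went opposite ways, and paired by the pattern of the file names both were lower at day 1 (0.834% against 1.95%, and 25.4% against 39.8%). Within each H1.0 library, members were lower than ground-only intervals in 3 of 4 libraries, by a mean of -3.17 points (exact sign-flip permutation p = 0.5, smallest possible 0.125), and at equal covered length the mean difference was 5.13 points in the other direction. At least 1 H1.0 library held 4851 members (66.8%) and all 4 held 14.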

How the data were processed

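The data were 16 CUT&RUN peak lists, 4 of H3K9me3, 4 of H1.0 and 8 of MEF2C; the other 8 of the 24 samples, IgG controls, were not analysed here. Per the submitters' processing notes, Bowtie2 and SEACR were used on mm10, and their versions are not given in the sources used here. Every list holds the peaks of 1 sample, and its deposited values are signal, the authors' coverage summed over a peak and its maximum within it, with no scaling to depth shown. The labels give 30 M reads per sample; aligned depth is unknown, and the covered length of the lists and the variation among libraries set the precision.

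Intervals were computed base-wise on chromosomes 1 to 19 and X with numpy 2.4.6 and pandas 2.3.3, and the interval functions were tested on simulated data. A list held an interval when it shared at least 1 bp with it, and the covered share is the percentage of base pairs under its peaks. Coordinates are 1-based on mm10. No filter for artefact-prone or repeat-rich regions was applied. Genes came from the RefSeq table of GRCm38.p6 (21627 protein-coding genes), matched by position, and lists by symbol or prefix; the table gives neither strand nor exons, so exons, introns and UTRs were not told apart. Promoter windows, with strand, came from RefSeq of the same assembly, with 32619 of 32851 in use. Member sequences other than promoters were not used here.

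The members and the 34 gene lists were chosen with earlier results of these data known, as were the comparison with shared intervals and the distance classes. Members named were the 10 longest, the 10 with the highest lower percentile of maximum signal over both day 1 lists, the 10 held by most MEF2C libraries and, added later, the highest ranked over 20 kb from ground-state peaks; from each ranking some are given. Genes named were the 15 with most body sequence in members, the 10 with the highest share of a body of at least 2 kb, and list genes near members, of which some are not reported here. Tests were exact permutation or sign-flip tests over libraries (two-sided), adjusted with Benjamini-Hochberg in statsmodels 0.14.6. Alternatives were other minimum lengths, the peaks above the median signal of each list, equal covered length, a widened opposite state, whole peaks, other gene distances, the replicate block and leaving out each library.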

Additional observations from a re-analysis of the deposited data

Results flagged for a closer look

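The rule kept to chromosomes 1 to 19 and X. On Y and unplaced sequences, 35 in all, the same pattern gave 18 day 1-only intervals, 3 of them on Y. The reverse pattern gave 19 there, with 20.4 kb against 17.2 kb, a ratio unlike the 10.3 on the other chromosomes. They entered no comparison.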

How the results depend on the processing

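Of 106 alternative values over 11 results, 60 kept their direction and side of the threshold or stayed within 1.5 times. The number of members was 2941 (3.79 Mb) from 1000 bp, 2392 (2.81 Mb) with the stronger peaks of each list, 1508 (1.99 Mb) at equal covered length, and 3552 (3.59 Mb) with ground-state peaks widened by 1000 bp. Ground-only intervals numbered 1130 from 200 bp, 424 from 1000 bp, 323 (0.429 Mb) with the stronger peaks, 1990 (2.77 Mb) at equal covered length, 362 (0.522 Mb) with day 1 peaks widened, and 369 as whole peaks. Genes near members numbered 503 with the stronger peaks and 1640 within 20 kb. Leaving out 1 H3K9me3 library gave 7688 to 45333 members (7.55 to 110.3 Mb), 925 to 31516 ground-only intervals (1.34 to 59.7 Mb) and 1031 to 4447 genes near members.

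MEF2C covered share, members minus ground-only, was -0.436 points at equal covered length (exact permutation p = 0.0547), where both sets change, and -0.624 against shared intervals (exact permutation p = 0.141); for H1.0 the first was 5.13 points. The siJunb minus siH1f0 difference was -0.0833 points by covered share. Leaving out 1 library gave -0.0873 to 0.45 points for siJunb minus siControl, -0.152 to 0.386 for siH1f0 minus siControl, -0.179 to 0.31 for siJunb minus siH1f0, and -26.7 to 11.2 for H1.0 at day 1 minus the ground state, so all 4 signs depend on the library left out. For members minus ground-only it gave -3.88 to -3.09 points (MEF2C) and -5.66 to -0.386 (H1.0). The cause of these changes was not tested. With the replicate number as a block, the differences were 0.179, 0.296 and 0.0643 points for siJunb minus siControl, siH1f0 minus siControl and siJunb minus siH1f0 and -7.75 points for H1.0, and no call changed; whether the numbers pair the samples is not stated in the labels. Peak lists without aligned depth cannot tell lost sequence from sequence under the peak threshold. The H3K9me3 values have no test because the intervals were selected on those lists.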
